A study of Mus musculus with 6 samples.

Results

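Oxidative phosphorylation is carried out in the inner mitochondrial membrane. Complexes I and II pass electrons from NADH and succinate to ubiquinone, complex III passes them on to cytochrome c, complex IV reduces oxygen, and complex V makes ATP from the proton gradient that complexes I, III and IV build. Most subunits are encoded in the nucleus, and a small set that sits at the centre of complexes I, III, IV and V is encoded in mitochondrial DNA. The genes described here are 47 nuclear genes for subunits of these complexes, chosen by symbol among the 43432 genes listed in each count file. They comprise 21 genes of complex I, 4 of complex II, 7 of complex III, 11 of complex IV and 4 of complex V. Ndufa4 was counted with complex IV, where its protein is known to sit, although its symbol names complex I.

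RNA sequencing of mouse skeletal muscle was deposited as 3 libraries titled FID and 3 titled control, all carrying the tag D3, and the labels explain neither term. The series concerns a deletion of Igf1 in fibro-adipogenic progenitors, or FAPs, which are connective tissue cells of muscle that support its repair. Per the labels, tamoxifen was given to both groups on 5 days, in mice 12 to 13 weeks old, at 100 µg per g of body weight. At least 1 week passed before further steps, and both sexes were used. The sources used here do not give the promoter driving the deletion, the alleles of either group or the number of animals behind a library, so p-values measure the spread between libraries, part of which may be technical. Every library names muscle as its tissue, but the protocols describe RNA of both tissue and primary FAPs.

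Gene counts summed to between 8750157 and 9676812 in the FID libraries and between 5201853 and 10093757 in the control libraries, with control 1 the shallowest. Igf1 does not check the labels: it stood at 109, 107 and 81.6 CPM (counts scaled to a common library size, with TMM factors) in FID 1, 2 and 3, against 134, 60.4 and 106 CPM in control 1, 2 and 3 (edgeR adjusted p 0.990). The groups are therefore called by their labels. Myofibre markers were low, summing to 24.3 to 39.7 CPM in FID and 10.9 to 78.5 CPM in control, with the muscle creatine kinase gene Ckm at or below 1.19 CPM and the myoglobin gene Mb at or below 1.56 CPM in every library. In bulk samples, fewer cells of a type and less RNA per cell cannot be told apart. Macrophage markers summed to 6924 to 9852 CPM in FID and 3449 to 5555 CPM in control, with 13 of 14 higher on average in FID. FAP and stromal markers summed to 20858 to 31925 CPM in FID and 41460 to 46882 CPM in control, with 10 of 10 lower on average in FID. Endothelial markers summed to 1168 to 1919 CPM in FID and 1209 to 4242 CPM in control, the highest value being that of control 1. Pericyte and smooth muscle markers summed to 1061 to 1241 CPM in FID and 1253 to 2365 CPM in control, and neutrophil markers to 56.2 to 90.6 CPM in FID and 41.3 to 47.9 CPM in control. Fat markers summed to 338 to 384 CPM in FID and 317 to 762 CPM in control. Erythrocyte markers summed to 1.73 to 24.3 CPM in FID and 2.44 to 43.7 CPM in control. T and NK cell markers summed to 5.97 to 11.2 CPM in FID and 0.488 to 11.1 CPM in control. Only 1 of 6 fat markers passed the filter on low counts, so the fat sum rests almost wholly on 1 gene. Of the erythrocyte markers 2 of 6 passed, and of the T and NK cell markers 1 of 6. One marker of each of these lists (Lep, Slc4a1 and Cd3e) had no count in any library.

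The nuclear subunit genes were slightly higher in the libraries labelled FID. Of 46 members that passed the filter on low counts, 45 had a log2 fold change above 0, against 47.8% of all 12881 genes tested. Their median log2 fold change was 0.17, or 1.13-fold, against -0.019 for all genes. The differences were small, between -0.0053 for Ndufv1 and 0.55 for Uqcrb, with standard errors of 0.11 to 0.48. At an adjusted p of 0.05 (Benjamini-Hochberg, two-sided quasi-likelihood test of edgeR) 0 members passed, as did 0 of all genes (0.0%). The smallest adjusted p among the members was 0.175, for Sdhb. An unadjusted p under 0.05 was reached by 7 members, all of them higher in FID, where 9.81% of all genes were, and by 0 members lower in FID, where 9.21% of all genes were. In DESeq2 0 members passed, against 3.89% of genes higher and 2.41% lower in FID, and the smallest adjusted p of a member was 0.0960. With sample weights in limma-voom 2 members passed, Sdhb and Uqcrb (limma adjusted p 0.0373 and 0.0384), against 6.88% of genes higher and 5.01% lower in FID, and 35 of 46 members were above 0. The 3 FID values lay above the 3 control values in 18 of the 46 members, where 13.0% of all genes showed this. In 0 members did they lie below, where 12.3% of all genes showed this.

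**Figure D1:**
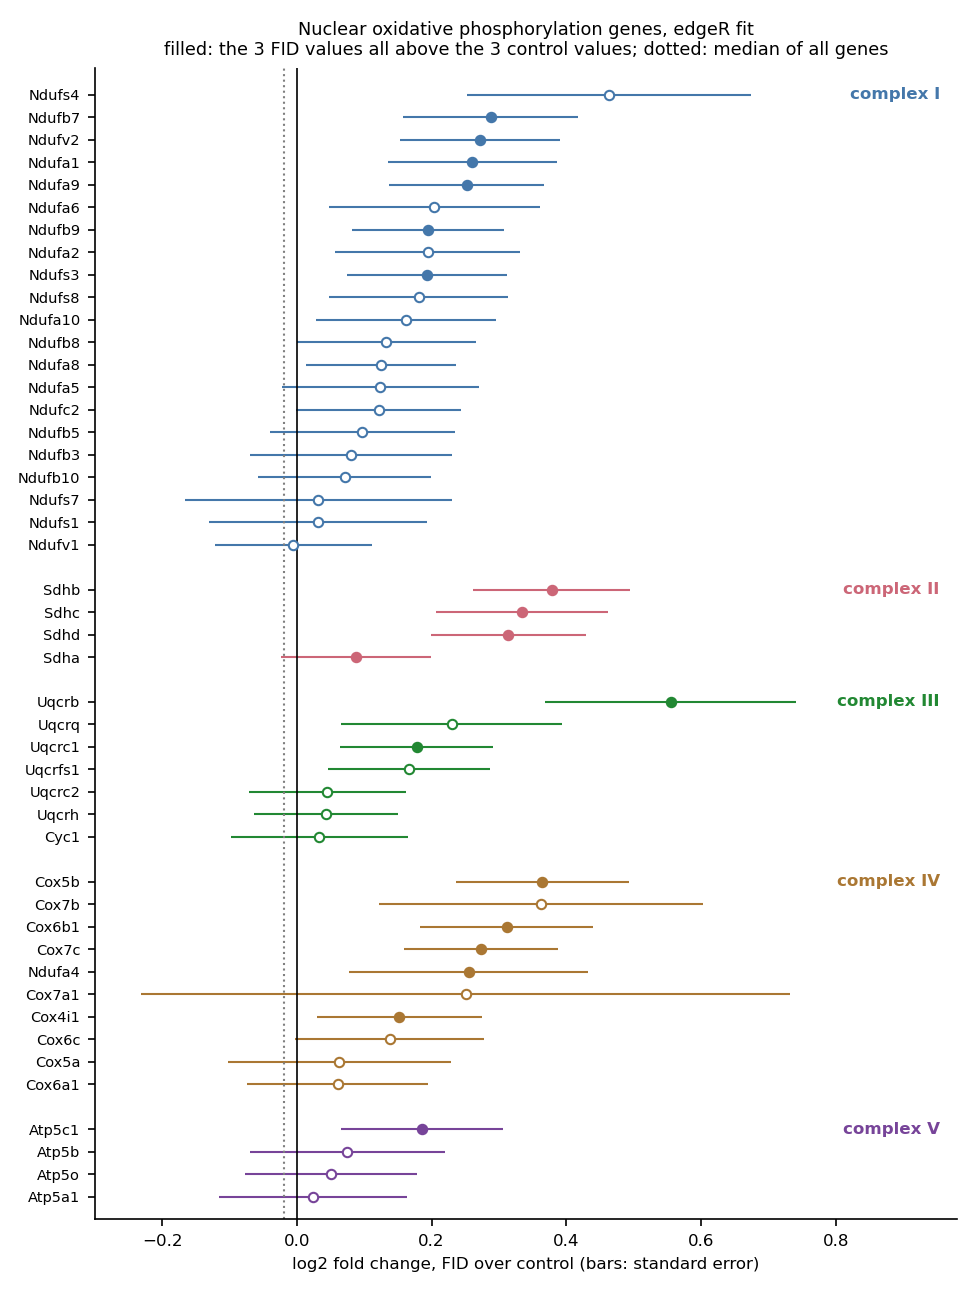
Log2 fold change of FID over control for the 46 tested genes (x axis, points, with bars for the standard error), grouped by complex. Points to the right of 0 are higher in FID, and filled points are the 18 genes whose FID and control values did not overlap.

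Control 1 weighed on these values. It held the lowest value of 31 of the 46 tested members, control 3 that of 11, FID 1 and control 2 that of 1 each, and FID 2 that of 2. The highest value fell in FID 1 for 14 members, in FID 2 for 6, in FID 3 for 17, in control 2 for 8 and in control 1 for 1. Without control 1, 37 of 46 members had a log2 fold change above 0, where 48.6% of all genes did, and the median was 0.13. In that fit 2 members were higher in FID at an unadjusted p under 0.05, where 11.1% of all genes were. The members that stayed above 0 whichever library was left out numbered 34.

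**Figure D2:**
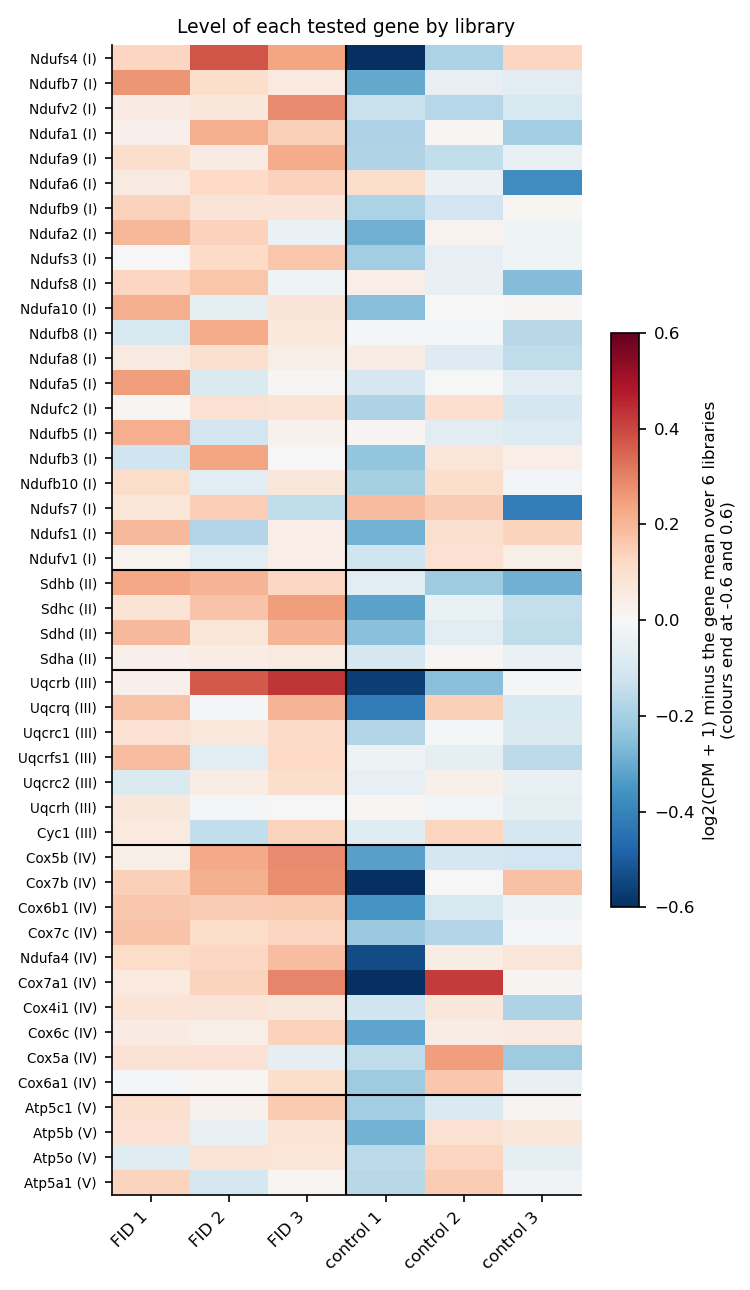
Log2(CPM + 1) of each tested gene minus its mean over the 6 libraries (colour), with FID libraries on the left and control libraries on the right, and genes in rows by complex. The column of control 1 is the lowest for 31 genes and that of control 2 is the highest for 8.

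Promoters of 36 members were found in the RefSeq windows of the same assembly (GRCm38.p6), which run from 250 bases before to 50 bases after a gene's start. NRF-1 and GABP are nuclear factors known to act on respiratory genes, and their motifs are shown because the choice of the members did not use them. Most of the 36 promoters held neither. The NRF-1 letters GCATGCGC, searched on both strands, occurred in 5 of the 36 members (13.9%) and in 3.94% of 17492 protein-coding genes. The full palindrome of the site counts once on each strand. The GABP letters CCGGAAG, searched on both strands, occurred in 8 members (22.2%) and in 12.9% of genes. The YY1 letters AANATGGCG occurred in 4 members (11.1%) and in 3.64% of genes, and TATAAA on the given strand in 2 members (5.56%) and in 9.82% of genes. Each stretch below holds 30 bases, 5′ to 3′ on the gene's strand, with the NRF-1 match in capitals in the first 5 and the GABP match in capitals in the last 2.
Ndufa6 (complex I, chr15:82354356-82354385, minus strand): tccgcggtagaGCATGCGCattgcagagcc
Ndufa8 (complex I, chr2:36049328-36049357, minus strand): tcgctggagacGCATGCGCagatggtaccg
Sdhb (complex II, chr4:140961206-140961235, plus strand): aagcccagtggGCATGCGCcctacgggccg
Uqcrc1 (complex III, chr9:108936667-108936696, plus strand): gactccgctctGCGCATGCGCagcgcggct
Cox6a1 (complex IV, chr5:115349102-115349131, minus strand): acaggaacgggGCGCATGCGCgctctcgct
Sdhb (complex II, chr4:140961266-140961295, plus strand): gctcggagaaaCCGGAAGcggccttccact
Sdhd (complex II, chr9:50603877-50603906, minus strand): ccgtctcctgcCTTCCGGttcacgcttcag
The matches of Ndufa6, Ndufa8, Sdhb and Cox6a1 to NRF-1 began 83, 8, 54 and 162 bases before the RefSeq start, and that of Uqcrc1 began 30 bases after it. GENCODE M21 starts Ndufa8 at 36049406 and Sdhb at 140961203, so by that annotation both of their NRF-1 matches lie after the start. The 5 members with an NRF-1 match had log2 fold changes of 0.20, 0.12, 0.38, 0.18 and 0.06 in the order printed, against a median of 0.17 over all tested members. GABP stretches are printed for the complex II members only. The other members with a GABP match were Ndufb7, Ndufs3, Ndufs8, Uqcrh, Cox6a1 and Cox6b1. Their log2 fold changes were, in that order, 0.29, 0.19, 0.18, 0.04, 0.06 and 0.31. A match is a description of letters and not evidence of binding.

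Complex II was the complex with the highest median, 0.32. All 4 of its genes separated the groups with FID higher, where 13.0% of all genes did. The complex oxidises succinate in the TCA cycle and is the one with no mitochondrially encoded subunit. Sdhb, the iron-sulphur subunit, stood at 98.6, 96.8 and 91.6 CPM in FID 1, 2 and 3, against 80.3, 72.2 and 68.5 CPM in control 1, 2 and 3. The lowest FID library lay above the highest control library, and the log2 fold change was 0.38 (standard error 0.12, edgeR adjusted p 0.175). It stayed between 0.34 and 0.44 whichever library was left out. Its promoter, printed above, holds both an NRF-1 and a GABP match, as does that of Cox6a1, whose log2 fold change was 0.06. Sdhc, one of the membrane anchors that bind ubiquinone, stood at 155, 165 and 174 CPM in FID, against 117, 142 and 132 CPM in control (log2 fold change 0.33, SE 0.13, edgeR adjusted p 0.225). Sdhd, the other anchor, stood at 119, 109 and 119.7 CPM in FID, against 87.2, 99.1 and 93.1 CPM in control (log2 fold change 0.31, SE 0.12, edgeR adjusted p 0.212). Both anchors had every FID value above every control value. Sdha, the flavoprotein that oxidises succinate, differed least, at 320.1, 324 and 326 CPM in FID, against 292, 315 and 304 CPM in control (log2 fold change 0.09, SE 0.11, edgeR adjusted p 0.704). Without control 1 the median of the complex was 0.26. Whether complex II differs from the other complexes was not tested.

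Complex I, the NADH dehydrogenase and the largest complex of the chain, had a median of 0.16 with 20 of 21 genes above 0. In 6 genes the groups did not overlap and FID was higher, where 13.0% of all genes showed this. Before adjustment, 0 of the 21 genes had a p below 0.05, where 9.81% of all genes did higher and 9.21% lower in FID. Ndufv2, an iron-sulphur subunit of the arm that takes electrons from NADH, stood at 87.4, 88.7 and 103 CPM in FID, against 77.1, 75.1 and 79.1 CPM in control (log2 fold change 0.27, SE 0.12, edgeR adjusted p 0.270). Ndufb7, an accessory subunit of the membrane arm, stood at 62.3, 55.8 and 53.9 CPM in FID, against 41.5, 49.9 and 49.2 CPM in control (log2 fold change 0.29, SE 0.13, edgeR adjusted p 0.284). In both genes the FID values lay above the control values, by a gap smaller than the SD within FID. Ndufs4, an accessory subunit whose loss in mice causes a fatal brain disease, stood at 50.9, 60.6 and 55.0 CPM in FID, against 28.5, 40.6 and 51.0 CPM in control. Its log2 fold change of 0.46 (standard error 0.21, edgeR adjusted p 0.286) was the highest of the complex, but control 3 lay just above FID 1. It was 0.28 without control 1 and 0.69 without control 3.

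Among the other complex I genes, Ndufv1, which binds NADH and the flavin, stood at 112, 105 and 113 CPM in FID, against 101, 117 and 113 CPM in control, and was the one member with a log2 fold change below 0 (-0.0053, SE 0.12, edgeR adjusted p 0.987). Ndufa1, a small X-linked subunit needed for assembly, averaged 50.5 ± 3.35 CPM in FID and 42.1 ± 3.55 CPM in control (SD, n = 3 each), without overlap. Ndufb5, a membrane-arm subunit, averaged 34.6 ± 4.14 CPM in FID and 32.4 ± 1.28 CPM in control (SD, n = 3 each), with overlapping values. The other complex I genes without overlap, chosen after their values were seen, were Ndufa9, Ndufb9 and Ndufs3. Ndufa9, which lies where the matrix arm meets the membrane, averaged 118 ± 7.30 CPM in FID and 98.7 ± 4.91 CPM in control (SD, n = 3 each). Ndufb9 averaged 69.9 ± 1.82 CPM in FID and 61.0 ± 4.33 CPM in control, and the core subunit Ndufs3 57.5 ± 3.40 CPM in FID and 50.2 ± 3.45 CPM in control (SD, n = 3 each). The other 12 genes overlapped between the groups, with log2 fold changes of 0.03 (Ndufs1 and Ndufs7) to 0.20 (Ndufa6). The 6 core subunits among the members, those conserved from bacteria, had a median of 0.11, and the 15 accessory subunits had 0.16. The median of complex I was 0.14 without control 1 and 0.21 without control 2.

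Complex III, which carries electrons from ubiquinol to cytochrome c, had a median of 0.17 with 7 of 7 genes above 0, and 0.095 without control 1. Uqcrb, a subunit near the ubiquinone site, had the highest log2 fold change of all members, 0.55 (SE 0.19, edgeR adjusted p 0.190). Its level was 39.4, 50.1 and 52.3 CPM in FID, against 25.7, 32.2 and 38.2 CPM in control, so FID 1 lay just above control 3. An exon of Uqcrb overlaps Gm10767 on the opposite strand, and the strand setting of the counting is not given in the sources used here. Uqcrc1, a core protein facing the matrix, stood at 196, 192 and 199 CPM in FID, against 163, 183 and 173 CPM in control (log2 fold change 0.18, SE 0.11, edgeR adjusted p 0.422), without overlap. Uqcrq, a small subunit, stood at 72.5, 64.0 and 74.2 CPM in FID, against 47.9, 71.1 and 60.3 CPM in control (log2 fold change 0.23, SE 0.16, edgeR adjusted p 0.477). Its groups overlapped, and the value was 0.095 without control 1. Cyc1, the cytochrome c1 gene, averaged 71.7 ± 7.14 CPM in FID and 70.0 ± 6.31 CPM in control (SD, n = 3 each). Uqcrh, the hinge protein that contacts cytochrome c, averaged 117 ± 3.46 CPM in FID and 114 ± 2.55 CPM in control (SD, n = 3 each), so both genes differed by no more than the SD within FID. The remaining genes, Uqcrfs1 for the Rieske iron-sulphur protein and Uqcrc2 for the second core protein, had log2 fold changes of 0.17 and 0.05 with overlapping groups.

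Complex IV, cytochrome c oxidase, had a median of 0.25 with 10 of 10 tested genes above 0. In 5 genes the groups separated with FID higher, where 13.0% of all genes showed this. Cox5b, a zinc-binding subunit on the matrix side, stood at 93.3, 107 and 111 CPM in FID, against 72.4, 84.8 and 84.2 CPM in control (log2 fold change 0.36, SE 0.13, edgeR adjusted p 0.200). Cox6b1, which faces the intermembrane space, stood at 171, 169.8 and 170.4 CPM in FID, against 119, 143 and 149 CPM in control (log2 fold change 0.31, SE 0.13, edgeR adjusted p 0.250). Cox7c, a small membrane subunit, stood at 115, 110.03 and 111 CPM in FID, against 87.2, 89.9 and 101 CPM in control (log2 fold change 0.27, SE 0.11, edgeR adjusted p 0.256). These 3 genes had every FID value above every control value and an unadjusted p under 0.05, which 9.81% of all genes reached higher in FID. Cox5a, a matrix-side subunit, stood at 32.1, 32.1 and 28.95 CPM in FID, against 27.1, 36.1 and 25.9 CPM in control, and its groups overlapped (log2 fold change 0.06, SE 0.17, edgeR adjusted p 0.867). Control 1 stood apart in Cox7b and Ndufa4, small membrane subunits, which had log2 fold changes of 0.36 and 0.25 with it and 0.12 and 0.08 without it. Cox4i1, the widely expressed form of a subunit that enters the enzyme early, averaged 269 ± 1.29 CPM in FID and 242 ± 22.5 CPM in control (SD, n = 3 each), without overlap. Cox6c and Cox6a1 overlapped, with log2 fold changes of 0.14 and 0.06. The median of complex IV was 0.10 without control 1, when 8 of 10 genes were above 0.

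Complex V, the ATP synthase, differed least, with a median of 0.06. Atp5b, the catalytic beta subunit, stood at 1041, 952 and 1039 CPM in FID, against 806, 1045 and 1028 CPM in control. Atp5a1, the alpha subunit, stood at 869, 736 and 799.8 CPM in FID, against 705, 879.8 and 779.9 CPM in control. These were the most abundant members by CPM, and in both control 1 was the lowest library and control 2 the highest. Atp5o, part of the stalk that holds the catalytic head still, stood at 113, 126 and 125 CPM in FID, against 107, 130.3 and 115 CPM in control. In these 3 genes the groups overlapped, with log2 fold changes of 0.08, 0.02 and 0.05 and edgeR adjusted p of 0.812, 0.945 and 0.860. Atp5c1, the central shaft that turns inside the head, stood at 178, 169.7 and 185 CPM in FID, against 144, 157 and 168 CPM in control (log2 fold change 0.19, SE 0.12, edgeR adjusted p 0.431), and its groups did not overlap. Without control 1 the median of complex V was -0.025, and 1 of 4 genes was above 0, while without control 2 the median was 0.15.

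**Figure D3:**
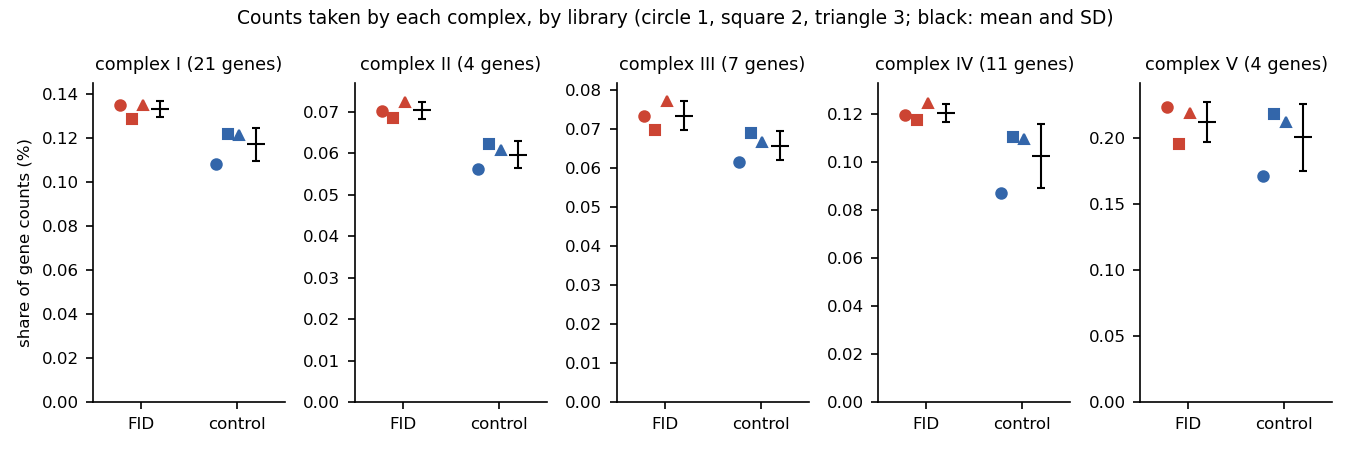
Percent of gene counts taken by the genes of each complex (y axis, from 0) in each FID library and each control library, with the mean and SD of each group in black. In complexes I, II, III and IV the FID points lie above the control points, and in complex V FID 2 lies below control 2 and control 3.

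Together the 47 genes took 0.610 ± 0.0264% of gene counts in FID and 0.545 ± 0.0533% in control (SD, n = 3 each). By library the share was 0.622, 0.579 and 0.628% in FID 1, 2 and 3, against 0.484, 0.581 and 0.570% in control 1, 2 and 3. FID 2 lay below control 2, so the groups overlapped. The difference in means was 0.064 percentage points, and 0.034 without control 1. Complex II took 0.0703 ± 0.00202% in FID and 0.0596 ± 0.00317% in control, and complex V took 0.212 ± 0.0150% in FID and 0.201 ± 0.0256% in control (SD, n = 3 each). Between the groups, the mean share was higher where the macrophage sums were higher and the stromal sums lower. Within FID, FID 3 had the highest share, the lowest macrophage sum and the lowest stromal sum (20858 CPM). FID 1, with a share of 0.622%, had the highest macrophage sum (9852 CPM) and the highest stromal sum (31925 CPM) of the FID libraries. Within control, control 1 had the lowest share, and its macrophage sum of 5555 CPM was close to the 5478 CPM of control 2. The stromal sum of control 1, 44423 CPM, lay between those of control 2 and control 3. The part of these cell types in the result was not tested.

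Per length (TPM, using the union of annotated exons), levels within a complex differed far more than the groups did. In complex I the mean over 6 libraries ran from 21.8 TPM for Ndufb5 to 357 TPM for Ndufa1. In complex II it ran from 122 TPM for Sdhb to 274 TPM for Sdhd, and in complex III from 107 TPM for Cyc1 to 304 TPM for Uqcrh. In complex IV the tested genes ran from 12.9 TPM for Cox7a1 to 702 TPM for Cox6b1. In complex V, Atp5a1 had 822 TPM and Atp5b 753 TPM, above Atp5c1 with 283 TPM and Atp5o with 196 TPM. Many of these orders depended on the length used, since genes with long annotated isoforms are set low by the union of exons. With the length of the APPRIS principal transcript, the annotation's main protein-coding one, complex I ran from 54.6 TPM for Ndufs1 to 242 TPM for Ndufc2, and complex II from 102 TPM for Sdhc to 237 TPM for Sdha. Complex III then ran from 93.4 TPM for Uqcrq to 464 TPM for Uqcrh, and complex IV from 11.8 TPM for Cox7a1 to 732 TPM for Cox4i1. In complex V, Atp5b then came first at 1126 TPM, Atp5a1 second at 705 TPM and Atp5o last at 312 TPM. With both lengths Uqcrh was highest in complex III, and Cox7a1 and Atp5o were lowest among the tested genes of their complexes.

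Several subunits of complex IV come in isoforms used by different tissues. Cox7a1 and Cox8b are the heart and skeletal muscle forms, and Cox7a2 and Cox8a their widely expressed partners. Cox7a1 had 19, 22 and 25 counts in FID 1, 2 and 3, against 3, 30 and 21 counts in control 1, 2 and 3. Its mean level of 12.9 TPM was far below the 227 TPM of Cox7a2, and its log2 fold change of 0.25 (standard error 0.48, edgeR adjusted p 0.811) could not be told from 0 at this depth. Cox8b had 1 count in FID 3 and 0 in the other 5 libraries, where a count of 0 allows up to 3 counts, or 0.297 to 0.577 CPM, for counting error only. Cox8b was the one member that did not pass the filter, and its partner Cox8a had a mean of 547 TPM.

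**Figure D4:**
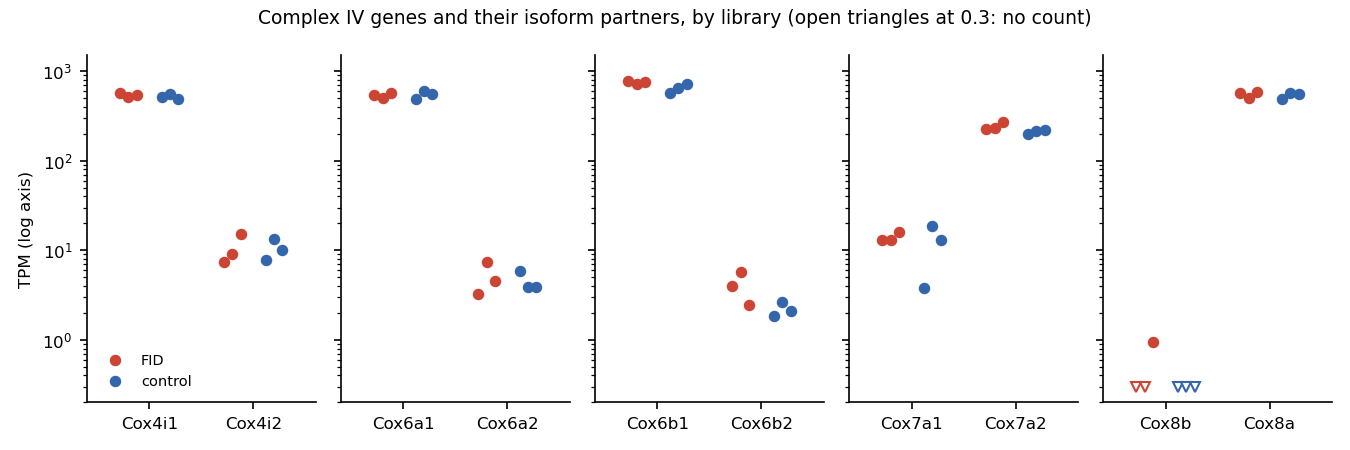
TPM (y axis, log scale) of 5 complex IV genes and their isoform partners in each FID library and each control library, with open triangles at the bottom for libraries without a count. The partners Cox7a2 and Cox8a lie above Cox7a1 and Cox8b in every library, and Cox4i1, Cox6a1 and Cox6b1 lie above their partners.

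In the other pairs too the widely expressed form had the higher level. Cox4i1 had a mean of 534 TPM, against 10.5 TPM for Cox4i2, the form known from lung and low oxygen. Cox6a1 had 545 TPM, against 4.81 TPM for Cox6a2, the heart and muscle form. Cox6b1 had 702 TPM, against 3.12 TPM for Cox6b2, the testis form. Cox7a2, the partner of Cox7a1, stood at 65.4, 72.2 and 81.0 CPM in FID, against 55.2, 63.0 and 60.9 CPM in control (log2 fold change 0.29, SE 0.13, edgeR adjusted p 0.282), without overlap.

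Other genes of the pathway were examined as lists of the remaining parts of the system. A list of nuclear genes outside the 47 held mostly subunits, with associated proteins such as Atpif1 and Cox7a2l. Of its 34 tested genes, 31 were above 0 with a median of 0.15, and 0.059 without control 1 and 0.24 without control 2. The 3 below 0, chosen after their values were seen, were Ndufb2 (-0.69, SE 0.51, at no more than 2.37 CPM), Cox7a2l (-0.080, SE 0.16) and Atp5d (-0.15, SE 0.12). Across all lists 0 genes passed edgeR's adjusted test. Ndufa12, an accessory subunit of complex I, stood at 60.5, 55.8 and 68.5 CPM in FID, against 42.3, 47.9 and 45.5 CPM in control (log2 fold change 0.44, SE 0.13, edgeR adjusted p 0.164). Ndufs6, a zinc-binding subunit of the same arm, had a log2 fold change of 0.39 (standard error 0.12, edgeR adjusted p 0.180), and Atp5k, a membrane subunit of complex V, had 0.29 (SE 0.12, edgeR adjusted p 0.242). In these 3 genes the groups did not overlap. Atp5f1 had 0.26, Cox8a 0.16, Uqcr11 0.21 and Uqcr10 0.096. Cycs, the cytochrome c that shuttles between complexes III and IV, stood at 72.0, 92.1 and 88.9 CPM in FID, against 50.8, 53.9 and 69.4 CPM in control (log2 fold change 0.54, SE 0.17, edgeR adjusted p 0.176). The lowest FID value lay just above the highest control value.

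Assembly factors, which build the complexes without staying in them, had a median of 0.24 with 37 of 42 tested genes above 0, and 0.14 without control 1. Among them 10 genes had an unadjusted p under 0.05, all higher in FID, where 9.81% of all genes were. Uqcc1, an assembly factor of complex III, stood at 23.7, 24.8 and 27.2 CPM in FID, against 17.6, 18.4 and 16.4 CPM in control (log2 fold change 0.53, SE 0.14, edgeR adjusted p 0.141). Sdhaf2, which attaches the flavin to Sdha, had 0.54 (SE 0.18, edgeR adjusted p 0.184), and Ndufaf4, an assembly factor of complex I, had 0.63 (SE 0.25, edgeR adjusted p 0.233). Tmem126b of complex I had 0.53, Uqcc2 of complex III 0.17, and Sdhaf4 of complex II 0.21. Atpaf2 and Tmem70 of complex V had 0.24 and 0.20, with standard errors of 0.16 and 0.18. Both Uqcc1 and Sdhaf2 separated the groups without overlap.

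Genes of the mitochondrial ribosome, which translates the mitochondrially encoded subunits, had a median of 0.21, with 70 of 76 tested genes above 0 (47.8% of all genes) and 22 with all FID values above all control values (13.0% of all genes). Mrpl1 stood at 14.0, 18.3 and 17.5 CPM in FID, against 10.5, 9.33 and 10.2 CPM in control (log2 fold change 0.73, SE 0.17, edgeR adjusted p 0.136). Mrpl19 stood at 22.3, 26.9 and 24.0 CPM in FID, against 13.1, 17.6 and 15.4 CPM in control (log2 fold change 0.66, SE 0.17, edgeR adjusted p 0.139). DESeq2 called both of these genes, with adjusted p of 0.0312 and 0.0385, and 3 genes of the list in all, a share near the 3.89% of all genes it called higher in FID. The median of this list was 0.12 without control 1.

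The TCA cycle list had a median of 0.07 with 12 of 17 genes above 0, and -0.018 without control 1, 0.041 without FID 3 and 0.14 without control 3. No gene of it reached an unadjusted p under 0.05, where 9.81% of all genes did higher and 9.21% lower in FID. No gene of it separated the groups, where 13.0% of all genes did with FID higher and 12.3% with FID lower. Suclg1 and Idh3b, the genes with the smallest p, had log2 fold changes of 0.16 and 0.12. Among carriers and porins, 5 of 6 genes were above 0, with a median of 0.14 and 0.0083 without control 1, and Vdac2, a pore of the outer membrane, stood at 188, 184 and 181 CPM in FID, against 152, 156 and 147 CPM in control (log2 fold change 0.28, SE 0.11, edgeR adjusted p 0.230). Vdac3 had 0.21 (SE 0.14, edgeR adjusted p 0.427).

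Of 11 tested regulators of mitochondrial biogenesis, 4 were above 0, where 47.8% of all genes were, and the median was -0.12. It was between -0.19 without control 1 and -0.029 without FID 2 or without control 3, with -0.053 without FID 3 and -0.063 without control 2. Whether the regulators differ from the subunit genes was not tested. Pprc1, a growth-responsive coactivator of the PGC-1 family, stood at 43.2, 39.1 and 38.0 CPM in FID, against 87.4, 60.4 and 52.9 CPM in control. All FID values lay below all control values, and the log2 fold change was -0.73 (standard error 0.20, edgeR adjusted p 0.148, DESeq2 adjusted p 0.0381), or -0.50 in the fit that left out control 1. Tfb1m, which modifies the mitochondrial ribosomal RNA, had 0.46 (SE 0.28, edgeR adjusted p 0.396). Ppargc1a and Ppargc1b, the other members of the coactivator family, had 4 to 13 counts in each library and were not tested.

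The mitochondrially encoded genes share the complexes with the 47 nuclear ones. Of 13 protein-coding genes 10 were tested, and all 10 had log2 fold changes above 0, with a median of 0.48 and 0 without overlap. The median was 0.28 without FID 2 and 0.73 without control 3. Of all genes, 47.8% were above 0 and 13.0% lay without overlap higher in FID. The 13 genes took 1.22, 2.18 and 1.63% of gene counts in FID 1, 2 and 3, against 1.01, 0.934 and 1.31% in control 1, 2 and 3. Their counts were 1.97, 3.77 and 2.59 times those of the 47 nuclear genes in FID, against 2.08, 1.61 and 2.30 times in control. FID 2, the highest library by this ratio, had the lowest nuclear share of the FID libraries, and FID 1 lay below control 1. The gene with the highest level, mt-Co1, stood at 5685, 11540 and 8087 CPM in FID, against 5369, 4277 and 5705 CPM in control (log2 fold change 0.72, SE 0.26, edgeR adjusted p 0.212). The counts of mt-Co2 were far lower, at 4.51, 9.13 and 6.81 CPM in FID, against 3.76, 2.74 and 4.59 CPM in control, also higher on average in FID. Reads with several matches were left out, and whether this lowered mt-Co2 was not tested, so its value may not be its level.

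**Figure D5:**
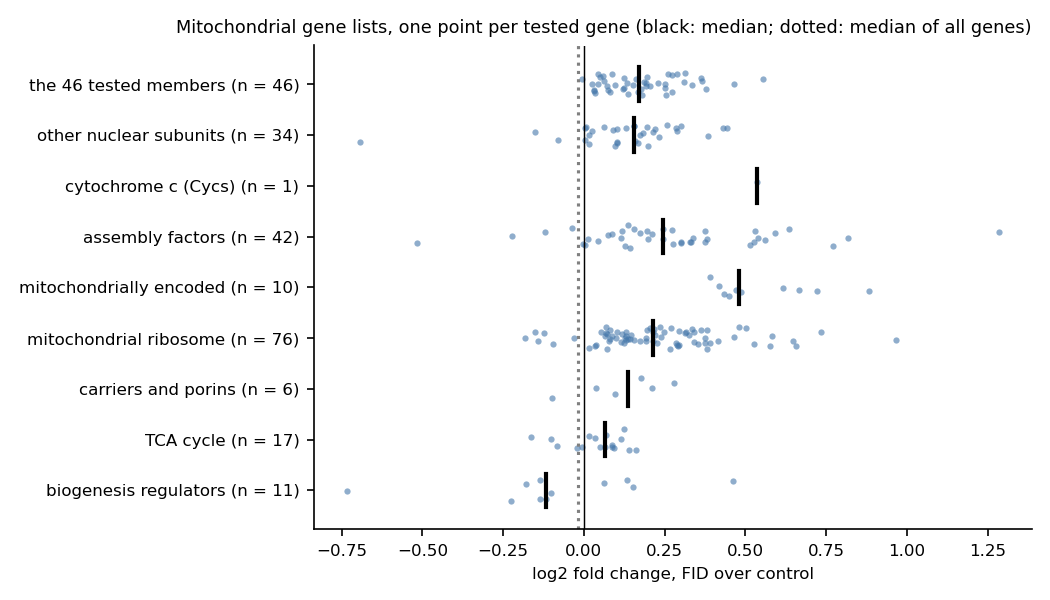
Log2 fold change of FID over control (x axis) for every tested gene of the mitochondrial lists, one point per gene, with the list median in black and the median of all genes as a dotted line. The medians run from -0.12 for the biogenesis regulators to 0.54 for cytochrome c, a single gene, with the 46 tested members at 0.17.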

How the data were processed

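The authors deposited raw counts of reads per gene, 1 file per library, under Ensembl gene IDs. Build mm10 is named in the submitters' processing notes, as are Bowtie2 2.5.4, DESeq2, SAMtools, HTSeq, STAR and cutadapt, without a role or order. The sources used here do not give the annotation release or the strand setting. Per the labels' protocols, a directional kit was used on 1000 ng of RNA with integrity numbers above 5.6. Entries that name no gene (9.60% to 10.9% of each file, of which reads with several matches were 3.11% to 4.49% of the file) were left out. Lengths and exon overlaps are those of GENCODE M21 on the same assembly, while promoter windows and their starts are those of RefSeq. A symbol was matched to 42462 of 43432 genes (97.8%) and to all 47 members. An exon overlapped an opposite-strand gene in 11 members, and a same-strand gene in 1, Ndufb8. Reads of near-identical copies may be lost.

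Genes were filtered with filterByExpr (minimum count 10, minimum total 15), scaled with TMM and tested with edgeR 4.0.16 on group alone, in R 4.3.3. Standard errors were derived from edgeR's F statistic, as |log2 fold change| over its root. The common biological coefficient of variation was 23.1%. Of the members tested, 45 had at least 100 counts in every library. The exact permutation test of a single value in 3 against 3 libraries cannot give a p below 0.1 and was not used. Alternatives were DESeq2 1.42.0, limma 3.58.1 (voom, with and without sample weights), other scalings, no filter, a replicate block and leaving out each library. Scripts were tested on simulated data. The members and lists were chosen with earlier results of these data known. Named members are, in each complex, those with the 3 smallest p, the largest p and the highest and lowest TPM, besides Cox7a1, Cox8b and their partners, and from each list the 2 genes with the smallest p. Cox7b, Ndufa4 and the promoters shown were chosen after values were seen. Between libraries of a group the counts gave a chi-square of 14.1 to 46.0 per degree of freedom, so none was taken for a copy.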

Additional observations from a re-analysis of the deposited data

How the results depend on the processing

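The count of genes passing the adjusted threshold was 0 in edgeR, 764 in DESeq2, 0 in limma-voom, 1531 with sample weights in limma-voom and 269 with no filter on low counts, and 0 to 359 with 1 library left out in edgeR, the highest without FID 1. Members passing numbered 0 in each of these except with sample weights, which called 2. With sample weights the median of all members was 0.10, and those of complexes I to V were 0.12, 0.27, 0.088, 0.12 and -0.011. The median of complex II ranged from 0.26 to 0.37 with 1 library left out. The cause of these shifts was not tested. Members higher in FID at an unadjusted p under 0.05 numbered 1 to 7 with 1 library left out, against 7 with all. Of all genes, 5.26% to 11.2% were with 1 library left out, against 9.81% with all. The count of 1 came without FID 3, where 6.23% of all genes were, and that of 7 without control 3, where 9.94% were. Members without overlap numbered 17 to 21 under the other scalings and with no filter, and 21 to 25 with 1 library left out, where separation is easier. The share of all genes without overlap and higher in FID was taken in the main setting only (13.0%), so these counts have no share beside them. Counting Ndufa4 with complex I gave medians of 0.17 for complex I and 0.25 for complex IV. With the replicate block, the count of genes passing stayed 0, and 45 of 46 members were above 0, where 48.9% of all genes were. In that fit 5 members were higher in FID at an unadjusted p under 0.05, where 8.83% of all genes were. Whether the numbers in the titles pair the libraries could not be settled from the counts. Same-numbered libraries had correlations of 0.012, -0.295 and 0.32 in their deviations from the group means. Those of other numbers ran from -0.367 to 0.312, and 3 libraries per group are too few to decide. With APPRIS lengths, chosen after seeing the data, Cox4i1 was 96.0 times Cox4i2 rather than 50.9 times, and Cox6b1 136 times Cox6b2 rather than 225 times. Depth limits Cox7a1 and Cox8b most.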

Other observations

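Factors that build complex IV had a median log2 fold change of 0.37 over 16 tested genes, 14 of them above 0, and 0.35 without control 1. Coa4, a twin cysteine protein of the intermembrane space, stood at 4.85, 7.87 and 5.19 CPM in FID 1, 2 and 3, against 2.57, 2.64 and 2.15 CPM in control 1, 2 and 3. Its log2 fold change was 1.29 (standard error 0.29, edgeR adjusted p 0.136, DESeq2 adjusted p 0.0220). Coa7, another soluble factor of the same space, stood at 7.32, 9.45 and 8.10 CPM in FID, against 4.15, 5.27 and 4.59 CPM in control (log2 fold change 0.82, SE 0.21, edgeR adjusted p 0.141). Neither gene's groups overlapped. In this list 10 genes had every FID value above every control value, where 13.0% of all genes did. Another 2 had every FID value below, where 12.3% of all genes did. The 2 genes of this list below 0 were Cox10, which makes haem O on the way to the haem A of complex IV, and Cox11, which delivers copper, and they were chosen after their values were seen. Cox10 stood at 10.4, 10.1 and 10.9 CPM in FID, against 12.9, 12.9 and 10.9 CPM in control (log2 fold change -0.22, SE 0.16, edgeR adjusted p 0.480). Cox11 had a log2 fold change of -0.52 (standard error 0.30, edgeR adjusted p 0.374) at 2.02 ± 0.291 CPM in FID and 2.92 ± 0.499 CPM in control (SD, n = 3 each). In both Cox10 and Cox11 every FID value lay below every control value, in Cox10 by less than the printed digits show.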
